A study of Mus musculus with 3 samples.

Results

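Dividing type 1 conventional dendritic cells (cDC1s) from mouse tumours are described here, in scRNAseq data in which the authors' table of cDC1s leaves out clusters of proliferating cells. The cells were selected on measured values: their barcodes were outside that table, they held 1000 or more genes and under 10% mitochondrial UMIs, and they carried at least 1 unique molecular identifier (UMI) each of *Xcr1*, *Cadm1*, *Mki67* and *Top2a* and 0 UMIs of *C1qa*, *Cd3e* and *Ncr1*. These conditions found 411 of 30209 barcodes, 1.36% (95% interval 1.23 to 1.498), and they are called cycling cDC1s below. Levels of those 7 genes chose the cells, so they are given as a description and were taken out before any test.

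cDC1s take up material from dying cells and present it to CD8+ T cells, and they depend on the transcription factors IRF8 and BATF3. They arise from bone marrow precursors that seed tissues while still able to divide, and fully differentiated cDC1s divide less. A dividing cell copies its DNA in S phase, when replication enzymes and histones are made, and separates the copies in mitosis, which is driven by cyclin B and CDK1 and ended by the anaphase-promoting complex.

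To describe the states of tumour cDC1s, the study sorted cDC1s, cDC2s and their precursors (pre-cDCs) out of MCA205 LA-OVA tumours, transplanted fibrosarcomas carrying a model antigen. Tumours grew on both flanks of C57BL/6J mice aged 6 to 20 weeks and were taken on day 5. The WT library pooled 25 male and 12 female mice, the *sGsn-/-* library 15 male and 16 female mice, and the *sGsn-/- Clec9a-/-* library 10 male and 17 female mice. *sGsn-/-* mice lack secreted gelsolin, an extracellular actin-binding protein, and *sGsn-/- Clec9a-/-* mice also lack DNGR-1, the cDC1 receptor for actin exposed on dead cells. Each genotype had 1 library, so no difference between genotypes could be tested, and values below stand in the order WT, *sGsn-/-* and *sGsn-/- Clec9a-/-*.

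The libraries held 176578136, 109270958 and 113411930 UMIs. The cycling cDC1s numbered 147, 117 and 147 and summed to 3575016, 3094638 and 3370590 UMIs. The median cycling cDC1 held 23480 UMIs, 4290 genes and a mitochondrial share of 1.69%. Levels are CPM, the counts-per-million scale, taken over the summed UMIs of a group in 1 library. Intervals are exact (Clopper-Pearson for shares, Poisson for levels) and cover counting error only.

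*Clec9a* (ENSMUSG00000046080, chr6:129408862-129424763 on GRCm38/mm10, overlapping *Clec1b* and *Gm43914*), which encodes DNGR-1, was used to check the library labels. In the cycling cDC1s it measured 185 CPM (171 to 199) in WT and 144 (131 to 158) in *sGsn-/-*, and 0 in *sGsn-/- Clec9a-/-*, where 0 UMIs allow up to 1.09 CPM. In these cells the level was thus high in both libraries with an intact gene and not detected in *sGsn-/- Clec9a-/-*. Of 955 NK cells of that library, 1 held a *Clec9a* UMI. *Gsn* (chr2:35256380-35307892, overlapping *Gm43128*) measured 149, 194 and 171 CPM, and it could not check the *sGsn-/-* label because counts per gene do not separate secreted from cytoplasmic gelsolin. Pairs of libraries shared 26, 28 and 27 barcodes, none was in all 3, and 1 cycling cDC1 had a barcode that occurs in another library.

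*Xcr1*, the chemokine receptor of cDC1s, measured 236, 236 and 299 CPM in the selected cells, and *Cadm1*, an adhesion molecule, 109, 107 and 116. *Mki67*, which coats mitotic chromosomes, measured 364, 455 and 401 CPM, and *Top2a*, which untangles DNA, 423, 519.6 and 438. The median cell held 5 UMIs of *Xcr1*, 2 of *Cadm1*, 7 of *Mki67* and 9 of *Top2a*, so that most cells stood above the thresholds for the cycle genes. Just inside, 48 cells held exactly 1 *Mki67* UMI, 50 exactly 1 *Top2a* UMI and 142 exactly 1 *Cadm1* UMI, while 332 held at least 2 of both cycle genes. Just outside, 159 barcodes met every other condition but held UMIs of only 1 of *Mki67* and *Top2a*, and 529 were left out through *Cadm1* alone, 127 through *C1qa* alone and 51 through *Xcr1* alone.

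The table of cDC1s held 5806 cells, of which 68 (1.17%) carried UMIs of *Mki67* and of *Top2a*. Among all barcodes that met the cDC1 conditions, inside or outside the table, 439 of 2957 were cycling (14.8%, 13.6 to 16.2). Of those 439 cells, 411 were outside the table (93.6%, 90.9 to 95.7). Of 2080 cells with 0 UMIs of *Mki67* and *Top2a*, 301 were outside it (14.5%, 13.0 to 16.1). Cells with 1 of the cycle genes lay between, with 159 of 438 outside (36.3%, 31.8 to 41.0). The table thus leaves out nearly every cycling cDC1 by these markers and keeps most others.

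The cDC1 label was checked on genes that the selection did not use, with NK cells as a measure of free RNA. The NK reference was 3083 cells with *Ncr1* UMIs and 0 *C1qa* and *Cd3e* UMIs, at a median of 9645 UMIs against 23480 in the cycling cDC1s. *Tlr3*, a sensor of double-stranded RNA, was detected in 88.8% of cycling cDC1s and 7.20% of NK cells. *Itgae*, the integrin chain CD103, was detected in 78.1% and 7.36%. *Batf3*, a transcription factor that cDC1s require, was detected in 95.9% and 11.5%. *Naaa*, a lysosomal amidase abundant in cDC1s, was detected in 99.8% and 27.4%. *Clec9a* was detected in 93.9% and 95.7% of cycling cDC1s in the libraries that carry it, against 8.85% and 7.82% of NK cells. Each share in the cycling cDC1s was far above that of the reference, which was less deeply sequenced. *Irf8* was detected in 99.8% and 93.9%, so its share alone did not separate the cells.

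Other cell types were also represented. Summed levels of 6 cDC2 markers were 190.5, 192 and 248 CPM, with *Mgl2* the most abundant and none at 0 in any library. At least 1 UMI of *Itgam*, *Sirpa*, *Cd209a*, *Clec10a* or *Mgl2* was present in 162 cycling cDC1s (39.4%), against 63.5% of non-cycling cDC1s outside the table and 22.9% of those inside it. The highest 6% of doublet scores in each library held 55 cycling cDC1s (13.4%), 41.2% of the non-cycling cells outside the table and 0.787% of those inside it. Summed levels of 10 macrophage markers were 1561, 988 and 1183 CPM, with *Lyz2* the most abundant and *Ms4a7* at 0 in *sGsn-/-*. Summed NK markers were 28.5, 77.2 and 59.6 CPM, led by *Gzma*. Summed T cell markers (3.08, 5.17 and 3.56 CPM), B cell markers (0.839, 1.62 and 1.78), neutrophil markers (0, 0.323 and 0.297), erythroid markers (0.280, 0.323 and 0) and stromal markers (0.839, 1.62 and 1.48) were near 0.

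The first comparison asks how cycling cDC1s differ from cells left out of the table that met the same marker conditions but held no UMI of *Mki67* or *Top2a*. These 301 non-cycling cells (135, 70 and 96) had a median of 19365 UMIs. Groups were summed by library, and the 3 libraries served as replicates, so p-values measure the spread between libraries of different genotypes. Of 9479 genes tested, 1127 were higher in the cycling cDC1s (11.9%) and 889 were lower (9.38%), at an adjusted p under 0.05. Of the higher genes, 146 were in 5 lists of cell cycle genes and 981 were in none, and 544 differed by at least 2-fold and 187 by at least 8-fold. Of the lower genes, 309 differed by at least 2-fold and 5 by at least 8-fold. With the library as a block, 1253 genes were higher and 1139 lower. The non-cycling cells hold more cDC2 marker UMIs and more high doublet scores, and without any cell holding a cDC2 marker UMI, an alternative chosen after seeing the data, 399 genes were higher and 165 lower. That alternative kept 42, 22 and 46 non-cycling cells with 498085, 234117 and 521953 UMIs. The part of these smaller counts in calls lost under it was not tested.

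The 5 cycle lists together had 146 genes higher and 1 lower of 160 tested, with a median log2 difference of 3.48 against -0.01 over all genes. With 4 genes that had no count in the non-cycling cells set at their lower bound, the median was 3.41. Without cells holding cDC2 marker UMIs, 122 genes were higher and 0 lower of 149 tested. Since *Mki67* and *Top2a* chose the cells, the direction of genes expressed with them was set in part by the choice, and the values below describe which cycle genes differ and by how much. Genes with few or no UMIs in the non-cycling cells also met the count filter through the cycling cells alone, and could only be called higher.

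Genes of DNA replication and nucleotide supply were higher for 35 of 35 tested, with a median log2 difference of 1.78. *Pcna*, the clamp that holds DNA polymerases on the template, measured 348, 341 and 371 CPM in cycling cDC1s and 127, 128 and 129.6 in non-cycling cells. The groups did not overlap and differed by log2 1.43 (standard error 0.09, adjusted p = 1.3e-08, edgeR quasi-likelihood, Benjamini-Hochberg adjustment), higher in 3 of 3 libraries. *Rrm2* (ENSMUSG00000020649, chr12:24708241-24714146), the ribonucleotide reductase subunit that limits deoxynucleotide supply, measured 149, 159 and 145 CPM against 0.354, 1.997 and 2.43. It was close to absent from the non-cycling cells, with a fitted difference of log2 6.72, and higher in 3 of 3 libraries. With so few UMIs there, *Rrm2* could only be called higher. *Tyms*, which makes thymidylate, measured 114, 123 and 119 CPM against 11.7, 13.98 and 10.9, with no overlap between groups. The difference for *Tyms* was log2 3.26 (standard error 0.13, adjusted p = 2.3e-10, edgeR quasi-likelihood, Benjamini-Hochberg adjustment), higher in 3 of 3 libraries. *Tk1*, which salvages thymidine, measured 68.5, 69.2 and 65.9 CPM against 4.25, 3.99 and 3.65, a difference of log2 4.03 (standard error 0.17, adjusted p = 3.7e-10, edgeR quasi-likelihood, Benjamini-Hochberg adjustment), higher in 3 of 3 libraries. *Pole*, the catalytic subunit of the leading-strand polymerase, measured 23.5, 24.6 and 21.1 CPM against 2.12, 1.997 and 3.04, again without overlap. *Lig1*, which joins Okazaki fragments, measured 173, 139.9 and 127 CPM against 36.1, 37.3 and 39.5, and *Dut*, which clears dUTP, measured 219, 225 and 201 against 50.99, 63.9 and 69.3. *Pcna*, *Lig1* and *Dut* were thus well detected in both groups and higher in the cycling one, and *Rrm2*, *Tyms* and *Tk1* showed larger differences.

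Replication-dependent histones package newly copied DNA. Of 67 genes in the matrices 46 were tested, and 43 were higher and 0 lower, with a median of 4.81, or 4.60 with 3 genes at their lower bound. These 3 had 0 UMIs in the non-cycling cells, so they met the count filter through the cycling cells alone and could only be called higher. The summed level of the histones was 6461, 7496 and 5819 CPM in cycling cDC1s and 315, 316 and 318 in non-cycling cells. *Hist1h2ap* (chr13:21833026-21833507), which encodes histone H2A, measured 2324, 1968 and 1999 CPM against 50.3, 39.9 and 40.1. The groups were far apart in every library, by log2 5.53 (standard error 0.12, adjusted p = 3.6e-13, edgeR quasi-likelihood, Benjamini-Hochberg adjustment), higher in 3 of 3 libraries. *Hist1h1b*, the linker histone H1.5, measured 603, 972 and 576 CPM against 3.19, 9.32 and 7.30 and was highest in *sGsn-/-*. Its fitted difference was log2 6.87, higher in 3 of 3 libraries. The level in non-cycling WT cells was below the count filter. *Hist1h1b* thus passed the filter only with the cycling cells counted, and its call as higher is a description. *Hist1h2ae* measured 803, 915 and 709.7 CPM against 14.9, 14.6 and 10.9, and *Hist1h3c*, an H3 gene, 322, 386 and 258 against 1.42, 1.33 and 3.04. *Hist1h3c* was below the filter in every non-cycling library and passed it through the cycling cells alone. *Hist1h2af* had 469 UMIs in cycling cDC1s and 0 in non-cycling cells, at least 92.968-fold higher against a floor of 3 UMIs over the group. *Hist1h2bg*, with 77 UMIs against 0, was at least 15.26-fold higher by the same floor. Histone genes are near-identical copies, so which copy a UMI came from is uncertain, and their transcripts mostly lack the poly(A) tails by which RNA is captured.

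**Figure D1:**
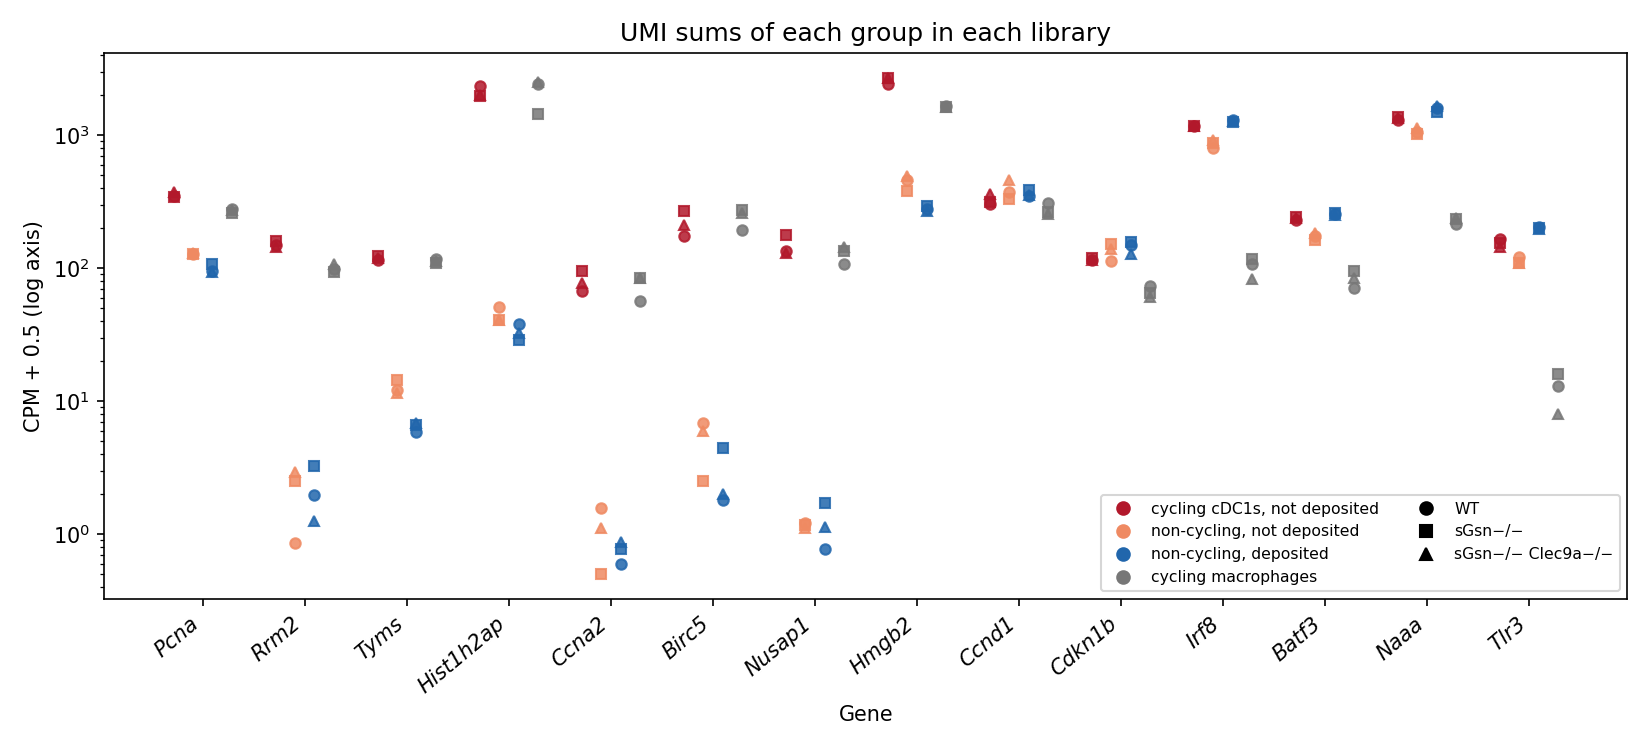
Level (CPM plus 0.5, log axis) of 14 genes in each library, for cycling cDC1s, non-cycling cDC1s outside and inside the authors' table, and cycling macrophages. Replication, histone and mitotic genes were high in both cycling groups and low in both non-cycling ones, whereas *Irf8*, *Batf3*, *Naaa* and *Tlr3* were high in the cDC1 groups and low in the macrophages.

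Mitotic cyclins, kinases and regulators of the anaphase-promoting complex were higher for 26 of 27 genes tested and lower for 0, with a median of 4.39, or 4.07 with *Cdc25c* at its bound. *Ccna2* (chr3:36564865-36572150, overlapping *Exosc9*), the cyclin of S phase and mitotic entry, measured 66.3, 94.7 and 76.2 CPM against 1.06, 0 and 0.608. It was nearly absent from the non-cycling cells, with a fitted difference of log2 6.75, and higher in 3 of 3 libraries. With so few UMIs there, *Ccna2* met the count filter through the cycling cells alone and could only be called higher. *Birc5*, survivin of the chromosomal passenger complex, measured 175, 269 and 211 CPM against 6.37, 1.997 and 5.47. The fitted difference for *Birc5* was log2 5.40, higher in 3 of 3 libraries. *Birc5* was below the count filter in the non-cycling cells of *sGsn-/-*. It thus passed only with the cycling cells counted, and its call as higher is a description. *Ube2c*, the ubiquitin-conjugating enzyme of the anaphase-promoting complex, measured 117, 215 and 214 CPM against 8.85, 3.99 and 7.30. It was lowest in WT among the cycling cells, and the groups differed by log2 4.62 (standard error 0.29, adjusted p = 1.8e-08, edgeR quasi-likelihood, Benjamini-Hochberg adjustment), higher in 3 of 3 libraries. *Cdca8*, another passenger subunit, measured 133, 178 and 136 CPM against 5.67, 6.66 and 9.12, and *Cdca3*, a trigger of mitotic entry, 64.9, 93.4 and 73.9 against 2.12, 0 and 1.22. *Plk1*, the polo kinase, measured 20.1, 27.1 and 23.4 CPM against 2 UMIs in all non-cycling cells. *Cdc25c*, the phosphatase that activates CDK1, had 72 UMIs against 0, at least 14.27-fold higher, and with 0 there could likewise only be called higher. *Cks1b*, a CDK-binding subunit, measured 178, 224 and 199 CPM against 33.99, 31.3 and 40.1. *Pttg1*, securin, was the gene of the list not past the threshold, at 39.7, 47.2 and 38.9 CPM against 44.97, 42.6 and 40.1, and it is named after its values were seen.

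Genes of chromosome condensation, kinetochore, spindle and cytokinesis were higher for 30 of 30 tested, with a median of 4.19. *Hmgb2*, a chromatin protein abundant in dividing cells, measured 2443, 2699 and 2669.9 CPM against 459.9, 380.1 and 496. It was present in every group and differed by log2 2.51 (standard error 0.11, adjusted p = 3.7e-10, edgeR quasi-likelihood, Benjamini-Hochberg adjustment), higher in 3 of 3 libraries. *Stmn1* (chr4:134468320-134473843), which destabilises microtubules, measured 846, 893 and 808 CPM against 66.2, 74.5 and 83.3, with a difference of log2 3.48 (standard error 0.10, adjusted p = 7.3e-12, edgeR quasi-likelihood, Benjamini-Hochberg adjustment), higher in 3 of 3 libraries. *Tubb5*, a beta-tubulin, measured 1085, 1167 and 1143 CPM against 282, 256 and 262, a difference of log2 2.05 (standard error 0.08, adjusted p = 2.3e-10, edgeR quasi-likelihood, Benjamini-Hochberg adjustment), higher in 3 of 3 libraries. *H2afz*, a histone variant made throughout the cycle, measured 3804, 4591 and 3941 CPM against 1967, 2219.8 and 2152, the smallest of these differences, at log2 0.93 (standard error 0.09, adjusted p = 1.1e-06, edgeR quasi-likelihood, Benjamini-Hochberg adjustment), higher in 3 of 3 libraries. *Nusap1* (chr2:119618298-119651244), which bundles spindle microtubules, measured 135, 177 and 129.7 CPM against 0.708, 0.666 and 0.608, a comparator of 4 UMIs in all. The fitted difference for *Nusap1* was log2 7.65, higher in 3 of 3 libraries, but with so few UMIs in the comparator it could only be called higher. *Kif11*, the motor that pushes spindle poles apart, measured 88.95, 121 and 102 CPM against 0.708, 0 and 1.22. *Anln*, *Hmmr* and *Nuf2*, of cytokinesis, spindle and kinetochore, had 1 UMI each in the non-cycling cells and measured 22.9, 27.1 and 27.9, 41.7, 72.4 and 62.3 and 19.3, 31.99 and 19.9 CPM in the cycling cDC1s.

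Regulators of G1 differed less uniformly, with 12 genes higher and 1 lower of 22 tested and a median of 0.90. *Ccne1* and *Ccne2* encode cyclin E, which starts S phase. *Ccne1* measured 37.8, 26.2 and 23.4 CPM against 4.60, 5.32 and 4.26, a difference of log2 2.59 (standard error 0.27, adjusted p = 4.0e-06, edgeR quasi-likelihood, Benjamini-Hochberg adjustment), higher in 3 of 3 libraries. *Ccne2* measured 43.4, 30.7 and 25.8 CPM against 1.06, 4.66 and 1.82, and both cyclins were highest in WT. *E2f7* and *E2f8* encode repressors of E2F targets. *E2f8* measured 33.01, 49.4 and 46.3 CPM against 2.48, 3.33 and 2.43, and *E2f7* measured 21.3, 19.7 and 25.2 against 1.77, 0 and 0.608, with no overlap for either. *Cdk4*, the kinase partner of D cyclins, measured 109, 105 and 96.7 CPM against 67.98, 65.9 and 55.4, a difference of log2 0.67 (standard error 0.11, adjusted p = 2.5e-04, edgeR quasi-likelihood, Benjamini-Hochberg adjustment), higher in 3 of 3 libraries. The call for *Cdk4* was lost without cells holding cDC2 marker UMIs (0.19) and without the highest doublet scores (0.46).

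*Ccnd1*, cyclin D1, measured 301, 316 and 358 CPM in cycling and 370.4, 329 and 456 in non-cycling cells, overlapping and not past the threshold, although it passed as lower with the library as a block (-0.28), without the filter on low counts (-0.26), after thinning (-0.39) and with at least 2 UMIs of both cycle genes (-0.34). *Ccnd2* (chr6:127125162-127152193), cyclin D2, measured 75.2, 57.2 and 59.04 CPM against 143, 129 and 105 and was the gene of the list that was lower, named after its values were seen. The difference for *Ccnd2* was log2 -1.02 (standard error 0.13, adjusted p = 3.7e-05, edgeR quasi-likelihood, Benjamini-Hochberg adjustment), lower in 3 of 3 libraries. *Cdkn1a*, the inhibitor p21, measured 261, 281 and 292 CPM against 308, 379 and 275, again overlapping and not past the threshold, but past it as lower with the block (-0.23). *Cdkn1b*, the inhibitor p27, measured 114, 119.6 and 114 CPM against 114, 151 and 138, also overlapping. Without cells holding cDC2 marker UMIs the difference for *Cdkn1a* turned to 1.28, so its level relative to non-cycling cells depends on which cells are taken.

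The 6 genes outside the lists with the largest differences, at 50 CPM or more, are described first. *Esco2* (chr14:65819038-65833994), which acetylates cohesin during replication, measured 64.6, 65.3 and 58.4 CPM and had 0 UMIs in the non-cycling cells, at least 124.88-fold higher. *Pbk*, a mitotic kinase adjacent to *Esco2* on chromosome 14, measured 43.1, 63.01 and 53.4 CPM, against 1 UMI in the non-cycling cells. *Fbxo5*, which holds back the anaphase-promoting complex until mitosis, measured 51.2, 59.8 and 57.6 CPM against 1.06, 0.666 and 0.608, a fitted difference of log2 5.96, higher in 3 of 3 libraries. *Knl1*, a kinetochore scaffold, measured 87.8, 101 and 91.1 CPM against 1.06, 2.66 and 1.22, with a fitted difference of log2 5.87, higher in 3 of 3 libraries. *Pclaf*, which binds PCNA, measured 433, 497 and 401 CPM against 8.50, 5.32 and 11.6, a difference of log2 5.65 (standard error 0.16, adjusted p = 7.3e-12, edgeR quasi-likelihood, Benjamini-Hochberg adjustment), higher in 3 of 3 libraries. *Spc24*, a subunit of the kinetochore NDC80 complex, measured 126, 170.3 and 140.3 CPM against 6.02, 8.65 and 2.43, a fitted difference of log2 4.63, higher in 3 of 3 libraries. All 6 were far lower in every non-cycling library. *Esco2*, *Pbk*, *Fbxo5* and *Knl1* were at or near 0 there, so they met the count filter through the cycling cells alone and could only be called higher. *Spc24* was below the filter in the non-cycling cells of *sGsn-/- Clec9a-/-*. It thus passed only with the cycling cells counted, and its call as higher is a description.

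The 6 genes outside the lists with the lowest differences, at 50 CPM or more, were these. *Hilpda*, a lipid droplet protein, measured 20.7, 12.3 and 19.3 CPM in cycling cDC1s and 118, 156 and 69.3 in non-cycling cells, a difference of log2 -2.73 (standard error 0.24, adjusted p = 5.7e-07, edgeR quasi-likelihood, Benjamini-Hochberg adjustment), lower in 3 of 3 libraries. *Clec4n*, the lectin dectin-2, measured 18.2, 8.72 and 10.7 CPM against 87.8, 105 and 33.5, a difference of log2 -2.61 (standard error 0.32, adjusted p = 2.4e-05, edgeR quasi-likelihood, Benjamini-Hochberg adjustment), lower in 3 of 3 libraries. *Cd14*, a lipopolysaccharide co-receptor, measured 62.1, 41.04 and 70.9 CPM against 252, 355 and 167. *Cd72*, an inhibitory lectin, measured 23.5, 23.6 and 28.5 CPM against 120.4, 96.5 and 81.5. Both were lower in every library. *Cxcl2*, a neutrophil chemokine, measured 227, 62.7 and 137 CPM against 568, 976 and 391, and without cells holding cDC2 marker UMIs its difference turned to 0.998. *Ccl5*, a T cell chemokine, measured 4.20, 57.8 and 16.9 CPM against 67.98, 109.8 and 225, and its call was lost without *sGsn-/- Clec9a-/-* (-1.55) and without the highest doublet scores (-0.94).

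Cycle genes also varied among the cycling cDC1s themselves. Histone UMIs per 10000 UMIs of a cell had a median of 21.8 and ran from 1.69 at the 10th percentile to 196 at the 90th. Mitotic genes had a median of 15.3 (2.65 to 38.1 over the same percentiles) and replication genes of 31.6 (8.38 to 60.6), so histones had the widest spread of the 3 lists. By library the median of histones was 9.45, 49.5 and 18.3, highest in *sGsn-/-*, while that of replication genes was 34.1, 32.2 and 29.9. Over the 411 cells, which share libraries and differ in depth, Spearman's rho was 0.66 between histones and mitotic genes, -0.01 between histones and replication genes, and -0.26 between replication and mitotic genes. By rank, cells with more histone UMIs thus tended to hold more mitotic UMIs, although the cell with the most mitotic UMIs per 10000 (87.0) held 9.05 of histones. Histone and replication levels had a rank correlation near 0.

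**Figure D2:**
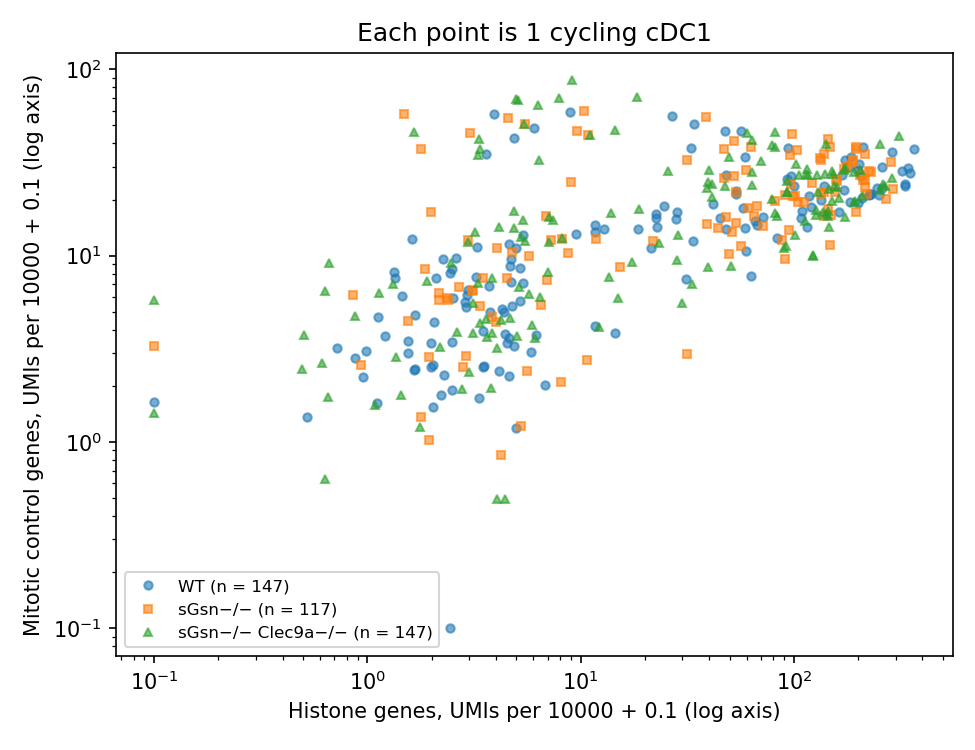
Histone against mitotic UMIs per 10000 UMIs in each of the 411 cycling cDC1s, coloured by library. The cell with the most mitotic UMIs in each library, at 58.6, 59.9 and 87.0 per 10000, had 8.79, 10.3 and 9.05 of histones, below the library medians of 9.45, 49.5 and 18.3.

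Detection of cyclins was counted in each cell, and *Ccnb1* and *Ccnb2* were chosen for it after values were seen. *Ccne1* was detected in 36.0% of cycling cDC1s and 8.31% of non-cycling cells, and *Ccne2* in 35.0% and 3.65%. *Ccnb1* was detected in 34.3% and 1.66%, and *Ccnb2* in 50.6% and 5.98%. These shares compare groups with median depths of 23480 and 19365 UMIs. Cyclin E without cyclin B UMIs marked 107 cells, cyclin B without cyclin E 131, both 104 and neither 69. In *sGsn-/-* cyclin E alone marked 25 cells and cyclin B alone 43, in WT the numbers were 41 and 35, and in *sGsn-/- Clec9a-/-* 41 and 53. With mean levels of 29.1 CPM for *Ccne1* and 34.8 CPM for *Ccnb1*, a cell of this depth is expected to give few UMIs or none, so these counts describe detection and do not show that a cell lacked cyclin E, the G1/S cyclin, or cyclin B, the mitotic cyclin.

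The cells were split into 3 equal groups by histone level, and genes were chosen for this view after values were seen. The values pool the libraries, whose histone medians differed (9.45, 49.5 and 18.3). *Rrm2* measured 65.7 CPM in the lowest group, 151 in the middle and 235 in the highest, and *Tyms* 77.7, 109 and 169. *Pcna* was near level at 358, 338 and 366 CPM. *Mcm5*, a subunit of the replicative helicase, measured 146, 94.9 and 110.2 CPM, and was highest where histones were lowest. *Ccna2* measured 31.9, 85.2 and 118 CPM and *Birc5* 59.9, 227 and 361. *Ccnb1* measured 18.7, 52.7 and 31.8 CPM, with UMIs in 15.3%, 40.1% and 47.4% of cells. *Cdc20*, which activates the anaphase-promoting complex, measured 27.7, 58.3 and 32.4 CPM, with UMIs in 13.9%, 33.6% and 46.7%. *Ube2c* measured 78.9, 287 and 169 CPM, with UMIs in 17.5%, 54.01% and 81.8%. *Cenpf*, a kinetochore protein of late cycle, measured 66.6, 165 and 122 CPM, with UMIs in 13.9%, 59.9% and 78.8%. *Ccnb2* (34.6, 105.4 and 101 CPM) and *Cenpa*, a centromeric histone, (61.7, 169.5 and 154) were also highest in the middle group. Other mitotic genes also had their highest level in the highest group, among them *Cdk1*, at 51.5, 122 and 159 CPM. The kinase gene *Plk1* measured 6.32, 27.2 and 36.6 CPM, *Aurka*, also a kinase, 15.7, 39.5 and 42.7, the motors *Kif20a* 10.2, 21.1 and 28.4 and *Cenpe* 37.04, 109.5 and 115, and the spindle genes *Nusap1* 39.1, 146 and 254 and *Hmmr* 26.2, 70.9 and 76.9. Mitotic genes thus had no single order over the groups. *Mki67* measured 176, 421 and 617 CPM and *Top2a* 174, 471 and 729, both higher where histones were, but these genes chose the cells.

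Promoters of cycle genes were searched for letters known to recur in them, CCAAT (bound by NF-Y) and TTTGAA (the core of the cell cycle homology region), on both strands. The promoters were RefSeq windows of 300 bases on GRCm38.p6, starting 250 bases before the gene's start, and the end of CCAAT and the start of TTTGAA can share a T. CCAAT occurred in 37.4% of all 32851 windows, TTTGAA in 17.9% and both in 6.95%. Of 22 windows of mitotic control genes, 81.8% held CCAAT, 59.1% TTTGAA and 59.1% both. Of 26 windows of 24 chromosome and spindle genes the shares were 69.2%, 76.9% and 61.5%. Of 36 windows of 29 replication genes they were 61.1%, 11.1% and 8.33%. TTTGAA was thus frequent in the mitotic and spindle lists and not in the replication list. A match describes the letters and is not evidence of binding. The windows of *Plk1* (chr7:122159185-122159484, plus strand), *Cdca3* (chr6:124829926-124830225, plus strand) and *Bub1b* (chr2:118597961-118598260, plus strand), a checkpoint kinase named after values were seen, are printed because each holds both motifs, with motif bases in capitals and ATTGG standing for CCAAT on the other strand.
Plk1: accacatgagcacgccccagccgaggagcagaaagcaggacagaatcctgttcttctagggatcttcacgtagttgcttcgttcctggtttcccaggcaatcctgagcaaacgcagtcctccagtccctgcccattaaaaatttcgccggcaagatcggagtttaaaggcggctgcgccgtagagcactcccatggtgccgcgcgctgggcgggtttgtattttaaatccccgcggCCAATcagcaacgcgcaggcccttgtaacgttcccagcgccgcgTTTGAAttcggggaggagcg
Cdca3: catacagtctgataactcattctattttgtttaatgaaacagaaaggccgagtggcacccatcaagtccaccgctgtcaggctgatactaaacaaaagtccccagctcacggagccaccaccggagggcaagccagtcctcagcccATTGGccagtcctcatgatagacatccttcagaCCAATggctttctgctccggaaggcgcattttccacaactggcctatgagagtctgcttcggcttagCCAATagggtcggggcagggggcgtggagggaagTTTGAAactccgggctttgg
Bub1b: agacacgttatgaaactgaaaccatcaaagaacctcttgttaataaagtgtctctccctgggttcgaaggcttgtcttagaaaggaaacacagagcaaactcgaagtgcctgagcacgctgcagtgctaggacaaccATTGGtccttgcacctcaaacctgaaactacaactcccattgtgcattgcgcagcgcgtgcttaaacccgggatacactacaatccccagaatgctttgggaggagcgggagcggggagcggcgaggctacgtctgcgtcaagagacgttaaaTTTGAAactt
In *Plk1* the first base of CCAAT lay at -14 and that of TTTGAA at 31, counted from the gene's start. In *Cdca3* CCAAT lay at -104 (reverse complement), -71 and -4, and TTTGAA also at 31. In *Bub1b* the reverse complement of CCAAT lay at -113 and TTTGAA at 41.

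cDC1 identity genes were higher in cycling than in non-cycling cells for 4 and lower for 1 of 18 tested, with a median of 0.22. Over all genes 11.9% were higher and 9.38% lower. The summed level of the identity genes was 5806, 5979 and 5709 CPM in the cycling cDC1s, with *Clec9a* at 0 in *sGsn-/- Clec9a-/-*. In the non-cycling cells it was lower in each library, at 4880, 4874 and 5058 CPM. *Irf8* (chr8:120736358-120756694), the lineage factor, measured 1164, 1178 and 1168 CPM against 803, 877 and 923, a difference of log2 0.40 (standard error 0.08, adjusted p = 0.0019, edgeR quasi-likelihood, Benjamini-Hochberg adjustment), higher in 3 of 3 libraries. *Batf3* measured 231, 242 and 237 CPM against 175, 161 and 182, a difference of log2 0.42 (standard error 0.09, adjusted p = 0.003, edgeR quasi-likelihood, Benjamini-Hochberg adjustment), higher in 3 of 3 libraries. *Tlr3* measured 165, 153 and 145 CPM against 121, 108 and 108, a difference of log2 0.41 (standard error 0.09, adjusted p = 0.0052, edgeR quasi-likelihood, Benjamini-Hochberg adjustment), higher in 3 of 3 libraries. *Naaa* measured 1301, 1365 and 1348 CPM against 1062, 1020.4 and 1141, a difference of log2 0.28 (standard error 0.08, adjusted p = 0.02, edgeR quasi-likelihood, Benjamini-Hochberg adjustment), higher in 3 of 3 libraries. Groups did not overlap for these 4 genes. Without cells holding cDC2 marker UMIs all 4 calls were lost, with *Irf8* at 0.13, *Batf3* at 0.05, *Tlr3* at -0.10 and *Naaa* at -0.19. Without the highest doublet scores *Batf3* (0.25), *Tlr3* (0.21) and *Naaa* (0.07) also missed the threshold. So they did after thinning (0.29, 0.39 and 0.20), as did *Naaa* without other-lineage cells (0.18), without WT (0.29) or *sGsn-/-* (0.22) and *Tlr3* without *sGsn-/-* (0.38). *Itgax*, the integrin CD11c, measured 52.9, 66.2 and 53.4 CPM against 103, 84.5 and 78.5 and was lower, but it turned to 0.27 without cells holding cDC2 marker UMIs and lost its call without the highest doublet scores (-0.44). *Id2*, another lineage factor, measured 479, 531 and 492 CPM against 364, 485 and 509.7, and *Ppt1*, a lysosomal thioesterase, 526, 498 and 480.3 against 516, 487 and 465. Both overlapped.

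Precursor genes were lower in cycling cDC1s for 8 and higher for 1 of 9 tested, with a median of -1.60. Of all genes 11.9% were higher, so the share higher in this list was near that. *Ly6c2*, a surface protein of precursors and monocytes, measured 15.9, 18.4 and 19.3 CPM against 97.7, 122 and 131, a difference of log2 -2.73 (standard error 0.14, adjusted p = 3.0e-09, edgeR quasi-likelihood, Benjamini-Hochberg adjustment), lower in 3 of 3 libraries. *Cd7*, a surface protein that the study took as a pre-cDC marker, measured 7.27, 6.46 and 19.3 CPM against 37.9, 42.6 and 62.04, a difference of log2 -2.11 (standard error 0.32, adjusted p = 1.8e-04, edgeR quasi-likelihood, Benjamini-Hochberg adjustment), lower in 3 of 3 libraries. *Kit*, a growth factor receptor of progenitors, was the higher gene at 109, 111 and 97.6 CPM against 84.98, 83.9 and 83.9, and its call was lost without any 1 of the libraries (0.28, 0.25 and 0.35), without the filter on low counts (0.31), after thinning (0.21), without the highest doublet scores (0.36), without other-lineage cells (0.27) and without cells holding cDC2 marker UMIs (0.03). *Plac8*, the most abundant gene of the list, measured 168, 245 and 315 CPM against 331, 449 and 452. Its call was lost without *sGsn-/-* (-0.73), without the highest doublet scores (-0.65) and without cells holding cDC2 marker UMIs (-0.45), as in the latter was that of *Tcf4*, a plasmacytoid factor (-0.55). *Siglech*, a plasmacytoid lectin, lost its call without *sGsn-/- Clec9a-/-* (-2.04).

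The study named *S100a4*, *S100a6* and *Ifitm1* for early cDC1s on these samples, so their direction is not independent evidence. All 3 were lower in the cycling cDC1s than in the non-cycling cells, with a median of -1.61. *S100a4*, a calcium-binding protein, measured 290.3, 204 and 279 CPM against 859, 771 and 682. *S100a6*, a related protein, measured 606, 465 and 547 CPM against 1477, 1152 and 1029. *Ifitm1*, an interferon-induced membrane protein, measured 251, 232 and 216 CPM against 1196, 863 and 679. The levels in cycling cDC1s were below those of the non-cycling cells in every library. All 3 calls were lost without cells holding cDC2 marker UMIs, at -0.18, -0.01 and -0.40.

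MHC class II genes were lower for 5 of 10 tested and higher for 0, with a median of -0.26. Of all genes 11.9% were higher and 9.38% lower, the shares to set beside each list of this paragraph. All 5 calls were lost without cells holding cDC2 marker UMIs, where *Cd74* was at -0.29 (-0.31 before), *H2-DMb2*, a peptide exchange chain, at -0.32 (-0.97 before), *H2-Eb1* at -0.17 (-0.31 before), *H2-DMa* at -0.14 (-0.33 before) and *H2-Oa* at -0.02 (-0.52 before), so that for *Cd74* the difference stayed and only the call was lost. With the library as a block *H2-Aa* (-0.15) and *H2-Ab1* (-0.17), the chains of I-A, also passed as lower. The call for *H2-Oa*, a chain of the exchange inhibitor, was lost without WT (-0.35) or *sGsn-/-* (-0.42), after thinning (-0.53) and without the highest doublet scores (-0.30) or other-lineage cells (-0.50), and those for *H2-Eb1* (-0.26) and *H2-DMa* (-0.31) without WT and without the highest doublet scores (-0.22 and -0.26), and for *H2-Eb1* also without other-lineage cells (-0.25). *Cd74*, the invariant chain, measured 17601, 16798 and 16791 CPM against 22438, 20147 and 19496, and its call was also lost without WT (-0.27). Genes of the *Ccr7* activation state were lower for 5 of 17 tested and higher for 0, with a median of -0.38. Calls were lost without WT for *Cd63* (-1.11) and *Il4i1* (-0.45), without *sGsn-/-* for *Socs2* (-1.18), and without *sGsn-/- Clec9a-/-* for *Cd63* (-0.82) and *Socs2* (-1.499), and for *Il4i1* also with at least 2 UMIs of both cycle genes (-1.87). With the block *Cxcl16* (-0.32) and *Nfkb2* (-0.40) also passed as lower, as did *Cxcl16* without *sGsn-/-* (-0.41) and *Cacnb3*, a calcium channel subunit, without the filter on low counts (-1.15). *Cd86*, a costimulatory ligand, measured 154, 159.6 and 141 CPM against 189.8, 222 and 187, a difference of log2 -0.43 (standard error 0.09, adjusted p = 0.0025, edgeR quasi-likelihood, Benjamini-Hochberg adjustment), lower in 3 of 3 libraries, and its call was lost without cells holding cDC2 marker UMIs (-0.37). *Cd83*, which stabilises surface MHC class II, measured 571, 648 and 605 CPM against 541, 540.5 and 577 and was not past the threshold. *Cxcl9* state and interferon-stimulated genes were lower for 1 of 13 tested and higher for 0, with a median of 0.04. The share lower was near the 9.38% of all genes. *Ifit1*, an RNA-binding antiviral protein, was the lower gene, at 0.839, 1.94 and 0.593 CPM against 3.89, 11.98 and 5.47. With so few UMIs in the cycling cells, *Ifit1* met the count filter through the non-cycling cells alone and could only be called lower. *Cxcl10*, a T cell chemokine, was not past the threshold but passed as higher with the block (0.84), without the filter on low counts (0.88), without *sGsn-/- Clec9a-/-* (1.04) and without cells holding cDC2 marker UMIs (2.42). *Cxcl9*, of the same family, passed without other-lineage cells (2.41) and without the filter (0.42).

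Immediate early genes, which respond within minutes to a stimulus, were higher for 4 of 8 tested and lower for 1, with a median of 0.36. Of all genes 11.9% were higher and 9.38% lower. The lower call, *Junb*, an AP-1 subunit, was lost without any 1 of the libraries (-0.24, -0.24 and -0.24), without the filter on low counts (-0.22), after thinning (-0.16), without the highest doublet scores (-0.19), without other-lineage cells (-0.16) and without cells holding cDC2 marker UMIs (-0.10). *Fosb*, a higher gene of the same family, lost its call without WT (0.37), without *sGsn-/- Clec9a-/-* (0.33), without the highest doublet scores (0.32) and without cells holding cDC2 marker UMIs (0.16). *Fos*, an AP-1 subunit, measured 3465, 3396 and 3429 CPM against 2253, 2109 and 1918, a difference of log2 0.68 (standard error 0.08, adjusted p = 9.7e-06, edgeR quasi-likelihood, Benjamini-Hochberg adjustment), higher in 3 of 3 libraries. *Egr1*, a zinc-finger factor, measured 921, 855 and 969 CPM against 708, 680.2 and 530.4, a difference of log2 0.48 (standard error 0.10, adjusted p = 0.0021, edgeR quasi-likelihood, Benjamini-Hochberg adjustment), higher in 3 of 3 libraries. *Dusp1*, a phosphatase that turns off MAP kinases, measured 991, 749.7 and 957 CPM against 659.6, 443 and 597, a difference of log2 0.62 (standard error 0.14, adjusted p = 0.0044, edgeR quasi-likelihood, Benjamini-Hochberg adjustment), higher in 3 of 3 libraries. Each level was higher in the cycling cells in every library. Ribosome biogenesis genes were higher for 5 of 7 and lower for 0, with a median of 0.34, and all 5 calls were lost without cells holding cDC2 marker UMIs. *Npm1*, nucleophosmin, also lost its call without any 1 of the libraries (0.20, 0.20 and 0.28), *Dkc1*, dyskerin, without WT (0.37) or *sGsn-/-* (0.61), and *Nop58*, a partner of NOP56, without WT (0.20). The calls for *Npm1*, *Dkc1* and *Nop58* were lost as well after thinning (0.19, 0.78 and 0.32), without the highest doublet scores (0.21, 0.33 and 0.27) and without other-lineage cells (0.27, 0.47 and 0.30). Without cells holding cDC2 marker UMIs *Npm1* was at 0.11 and *Dkc1* at 0.25. *Nop56*, which guides methylation of ribosomal RNA, measured 132, 118 and 117 CPM against 74.7, 83.2 and 77.9, a difference of log2 0.61 (standard error 0.10, adjusted p = 3.3e-04, edgeR quasi-likelihood, Benjamini-Hochberg adjustment), higher in 3 of 3 libraries, and turned to -0.04 there, with its call lost after thinning (0.44) and without the highest doublet scores (0.37). *Ncl*, nucleolin, measured 705, 699.6 and 618 CPM against 529, 549 and 464, with its call lost without the highest doublet scores (0.20).

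Endoplasmic reticulum folding genes were lower for 1 of 10 tested and higher for 0, with a median of -0.15. Of all genes 9.38% were lower, so the folding list was near that share. The lower gene was *Hspa5*, the chaperone BiP, at 749, 693 and 628 CPM against 853, 989 and 761, and its call was lost without *sGsn-/-* (-0.27). With the block *Calr* (-0.19) and *Pdia4* (-0.38), a chaperone and a disulphide isomerase, also passed as lower, and both did so with at least 2 UMIs of both cycle genes (-0.27 and -0.47), *Calr* after thinning (-0.42) and *Pdia4* without the filter (-0.36). Glycolysis genes were lower for 5 of 11 and higher for 0, with a median of -0.20. Without cells holding cDC2 marker UMIs *Eno1*, enolase, turned to 0.52 and *Slc2a1*, a glucose transporter, to 0.33, and *Hk2*, a hexokinase, lost its call (-0.18). These 3 genes also missed the threshold without the highest doublet scores (-0.51, -0.76 and -0.39), as did *Eno1* (-0.26) and *Slc2a1* (-0.85) after thinning and *Slc2a1* without other-lineage cells (-0.82). *Aldoa*, fructose-bisphosphate aldolase, measured 173, 151 and 157 CPM against 347, 398 and 359, and the groups were well apart, by log2 -1.23 (standard error 0.09, adjusted p = 6.5e-08, edgeR quasi-likelihood, Benjamini-Hochberg adjustment), lower in 3 of 3 libraries. *Gapdh*, the dehydrogenase of the same pathway, measured 731, 794 and 707 CPM against 780.4, 905 and 772, overlapping, and passed the threshold only with the block (-0.17).

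cDC2 markers were lower for 6 of 6 tested, with a median of -1.60, against 9.38% of all genes lower. *Itgam*, the integrin CD11b, measured 32.4, 29.4 and 29.97 CPM against 91.00, 98.5 and 74.8, and *Sirpa*, a phagocytosis checkpoint receptor, 15.7, 14.2 and 13.9 against 55.6, 49.9 and 37.7. Summed cDC2 markers in the non-cycling cells were 626, 421 and 527 CPM, above every cycling library. Macrophage markers were lower for 5 of 9 and higher for 0, with a median of -0.76, and *Lyz2*, lysozyme, measured 1055, 600.1 and 775 CPM against 1163, 1419 and 1436. The call for *Lyz2* was lost without *sGsn-/- Clec9a-/-* (-0.66), without other-lineage cells (-0.30) and without cells holding cDC2 marker UMIs (-0.12). *Apoe*, a lipid carrier, lost its call without cells holding cDC2 marker UMIs (-0.021) or other-lineage cells (-0.54) and turned to 0.34 without the highest doublet scores. *C1qb*, a complement chain, passed as higher without the filter on low counts (0.70), and measured 48.4, 15.2 and 7.12 CPM in the cycling cells. NK markers were lower for 1 of 5, with a median of -0.91, a count of only 1 gene against 9.38% of all genes. The lower gene, *Nkg7*, of cytotoxic granules, lost its call without *sGsn-/-* (-1.49) or *sGsn-/- Clec9a-/-* (-0.90), and *Il2rb*, a cytokine receptor chain, passed with the block (-0.79). *Gzma*, a granzyme, passed as lower with the block (-1.52), without the filter (-1.64), without WT (-2.04), after thinning (-1.89) and without cells holding cDC2 marker UMIs (-2.23), and *Gzmb*, another granzyme, without the filter (-0.89). No T cell, B cell, neutrophil, erythroid or stromal marker had counts enough for a test. *Gsn*, targeted in its secreted form, measured 149, 194 and 171 CPM against 243, 228 and 221, a difference of log2 -0.47 (standard error 0.10, adjusted p = 0.0031, edgeR quasi-likelihood, Benjamini-Hochberg adjustment), lower in 3 of 3 libraries, and its call was lost without WT (-0.33), after thinning (-0.34), without the highest doublet scores (-0.38) and without cells holding cDC2 marker UMIs (-0.26). How far cDC2-like RNA or doublets account for these differences was not tested.

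The second view sets cycling cDC1s beside 1779 non-cycling cDC1s inside the table (721, 466 and 592), with a median of 14575 UMIs. The table is the authors' choice of cells and the selection used it, so no test was run, and a gene is counted where it differed by at least 2-fold in each of 3 libraries. Of 7232 genes at 10 CPM or more, 559 were higher (7.73%) and 6 lower (0.083%). Against all 5806 cells of the table, 525 of 7214 were higher (7.28%) and 15 lower (0.208%). Cycle genes were higher for 135 of 148, with a median log2 ratio of 4.11 against 0.11 over all genes, and for 133 of 148 against all cells of the table. By list, 34 of 34 replication genes, 36 of 38 histones, 23 of 24 mitotic genes, 29 of 30 chromosome and spindle genes and 13 of 22 G1 genes were higher, with medians of 3.36, 4.34, 4.78, 4.78 and 1.57.

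cDC1 identity genes stood near those of the table, with 0 of 18 past 2-fold and a median of -0.34. *Irf8* measured 1309.6, 1251 and 1278 CPM in the table's non-cycling cells, log2 ratios of -0.17, -0.09 and -0.13. *Batf3* measured 253, 258 and 249.8 CPM there, log2 ratios of -0.13, -0.09 and -0.08. *Naaa* had log2 ratios of -0.30, -0.12 and -0.29 and *Tlr3* of -0.31, -0.38 and -0.45. All 4 were thus slightly lower in cycling cDC1s in each library. MHC class II genes (0 of 10, median -0.31), *Ccr7* state genes (0 of 11, median -0.37), immediate early genes (0 of 8, median 0.09), folding genes (0 of 10, median -0.01), ribosome biogenesis genes (0 of 7, median 0.62) and glycolysis genes (0 of 11, median 0.31) had no member past 2-fold in every library. Against all cells of the table, however, 6 of 15 *Ccr7* state genes were lower, with a median of -1.06.

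Some genes stood apart from the non-cycling cells of the table. *S100a4* measured 60.7, 59.5 and 53.03 CPM in the table's non-cycling cells, log2 ratios of 2.25, 1.77 and 2.38, and *Ifitm1* measured 56.4, 75.8 and 74.6 there, log2 ratios of 2.15, 1.61 and 1.53. Early cDC1 genes were thus higher for 2 of 3, with a median of 1.76, although the same genes were lower than in the non-cycling cells outside the table. Against all its cells the number higher was 0 of 3, with a median of 0.02. Precursor genes were higher for 1 of 7 (median 1.09) against its non-cycling cells and for 0 of 7 (median 0.40) against all its cells. *Cdkn1a* measured 83.1, 86.6 and 96.1 CPM, log2 ratios of 1.65, 1.69 and 1.60, and was higher in every cycling library. cDC2 markers were higher for 5 of 5, with a median of 2.46, including *Itgam* at 2.66, 2.17 and 2.54 and *Mgl2*, a lectin, at 2.96, 3.27 and 2.87. Macrophage markers were higher for 1 of 6 (median 0.50) and NK markers for 1 of 1 (1.23). Interferon-stimulated and *Cxcl9* state genes were lower for 2 of 11, with a median of -0.97. *Ifit2* had log2 ratios of -2.03, -1.78 and -2.52 and *Ifit3*, named after its values were seen, of -2.39, -3.96 and -2.05, both antiviral genes. The part of cDC2-like RNA in these ratios was not tested.

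The third comparison asks which genes mark cycling cDC1s among cycling cells, against 559 cycling macrophages (246, 138 and 175; UMIs of *C1qa*, *Mki67* and *Top2a*, and 0 of *Xcr1* and *Cadm1*), with a median of 24257 UMIs. The study's sort kept CD88- cells, and 547 of these 559 cells (97.9%) held a cDC2 marker UMI. Their summed cDC2 markers were 1107, 1237 and 1206 CPM. Of 10141 genes tested, 2112 were higher in cycling cDC1s (20.8%) and 2283 were lower (22.5%). With the library as a block the numbers were 2288 and 2429. Cycle genes were higher for 56 and lower for 8 of 164, with a median of 0.25 against -0.01, a larger share than the 20.8% of all genes that were higher and a smaller one than the 22.5% that were lower. Higher cycle genes numbered 32 of 166 without *sGsn-/-*, where 1628 of 10394 genes were higher, and 28 of 143 with cells thinned to 5000 UMIs, where 1072 of 6715 were, so the share of cycle genes was there only a little above that of all genes. They numbered 38 of 164 with at least 2 UMIs of both cycle genes (1890 of 9746) and 76 of 164 without the highest doublet scores (2160 of 9936). Without cycling cDC1s holding cDC2 marker UMIs they numbered 79 of 164 (2055 of 9807), and there all macrophages were kept. By list, 19 of 35 replication genes, 12 of 49 histones, 4 of 27 mitotic genes, 13 of 30 chromosome and spindle genes and 8 of 23 G1 genes were higher, and 1, 1, 1, 1 and 4 were lower. Their medians were 0.29, 0.23, 0.20, 0.30 and 0.11.

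Both groups were selected on *Mki67* and *Top2a*, so likeness in cycle genes follows the choice of cells. *Hmgb2* measured 1647, 1616 and 1629.8 CPM in the macrophages, and cycling cDC1s differed by log2 0.73 (standard error 0.07, adjusted p = 1.0e-06, edgeR quasi-likelihood, Benjamini-Hochberg adjustment), higher in 3 of 3 libraries. *Rrm2* measured 97.7, 92.6 and 106 CPM there, a difference of log2 0.66 (standard error 0.09, adjusted p = 3.1e-05, edgeR quasi-likelihood, Benjamini-Hochberg adjustment), higher in 3 of 3 libraries. *Hist1h2ap* measured 2408, 1445 and 2489.5 CPM there and was not past the threshold. *Cdkn1b* measured 73.4, 64.2 and 60.5 CPM there, a difference of log2 0.86 (standard error 0.09, adjusted p = 2.8e-06, edgeR quasi-likelihood, Benjamini-Hochberg adjustment), higher in 3 of 3 libraries. *Cdkn1a* measured 569, 621 and 626 CPM there, a difference of log2 -1.07 (standard error 0.08, adjusted p = 1.6e-07, edgeR quasi-likelihood, Benjamini-Hochberg adjustment), lower in 3 of 3 libraries. The 2 CDK inhibitors thus differed in opposite directions between the cycling cell types.

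Identity genes were higher for 17 and lower for 1 of 18, with a median of 2.74, and *Irf8* differed by log2 3.58 (standard error 0.11, adjusted p = 6.5e-11, edgeR quasi-likelihood, Benjamini-Hochberg adjustment), higher in 3 of 3 libraries. Macrophage markers were lower for 10 of 10 (median -4.13) and cDC2 markers for 6 of 6. Glycolysis genes were lower for 10 of 11, with a median of -0.71, and folding genes for 3 of 10. Precursor genes were higher for 4 and lower for 2 of 8, MHC class II genes higher for 5 and lower for 1 of 10, and early cDC1 genes lower for 3 of 3. *Ccr7* state genes were higher for 5 and lower for 4 of 15, and *Cxcl9* state and interferon-stimulated genes higher for 4 and lower for 5 of 14. Of all genes 20.8% were higher and 22.5% lower. The shares of these lists, and of lower folding genes, were only somewhat above those. Immediate early genes were higher for 4 of 8 and ribosome biogenesis genes for 3 of 8. The NK list had 0 of 5 past the threshold, and 1 of 1 B cell marker tested was lower. The macrophages were chosen on *C1qa* and the absence of *Xcr1* and *Cadm1*, so differences in lineage genes follow the choice of cells.

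Each cycling cDC1 was then placed with the cluster of the table that it resembled most, by Pearson correlation over 1000 genes that vary between clusters, with cycle genes left out. Cells of the table placed by centroids of the other libraries returned to their own state in 91.0%, 90.1% and 89.8% of cases. By state the rates were 96.7%, 95.0% and 96.3% for resting, 85.1%, 85.4% and 84.0% for early and 74.5%, 82.2% and 72.6% for activated cells, so the early and activated shares below are less sure than the resting share. In the table, clusters 4 and 1 are early, 5, 2, 3, 6 and 0 resting and 7 to 10 activated cDC1s. Of 411 cycling cDC1s, 314 were most like resting cells (76.4%, 72.0 to 80.4), 69 early cells (16.8%, 13.3 to 20.8) and 28 activated cells (6.81%, 4.57 to 9.70). The early share was 17.01%, 17.9% and 15.6% by library and the activated share 6.12%, 9.40% and 5.44%. For the non-cycling cells outside the table the early share was 33.9% and for those inside it 4.38%, so the cycling cells lay between. The latter were matched by markers. The whole table held 22.9% early cells by the authors' clusters (1332 of 5806), but its cells were not chosen by the cDC1 conditions. Of those early cells, 98 of cluster 1 and 29 of cluster 4 met the conditions. Of the table's 3499 resting cells, 508, 461, 354, 97 and 270 of clusters 0, 2, 3, 5 and 6 met them. The selection thus favoured resting over early cells, and the shares of the cycling cDC1s depend on it. Without the highest doublet scores the early share was 12.9% of cycling and 15.8% of non-cycling cells outside the table, and without cells holding cDC2 marker UMIs 11.6% and 7.27%, so that in the latter the order of these groups turned. By single cluster, 86 were most like cluster 3, 82 like cluster 0, 70 like cluster 2, 45 like cluster 1 and 24 like cluster 4. The median gap between the best and the next cluster was 0.00677 in correlation, so placements of single cells were close calls.

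**Figure D3:**
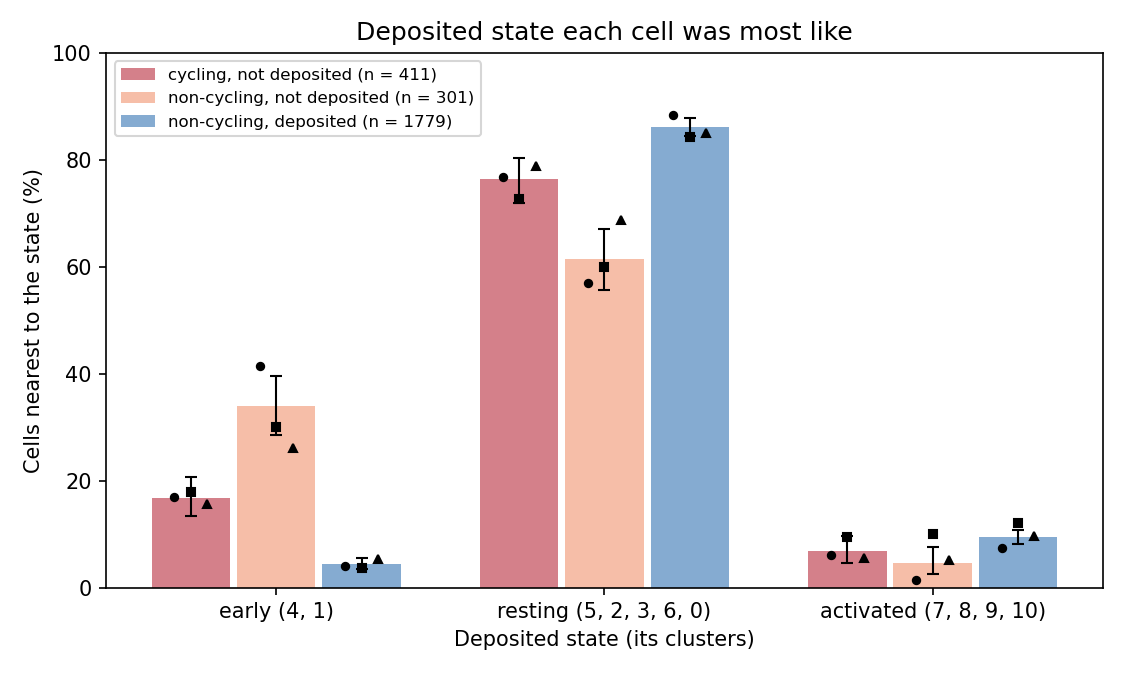
Share of cells most like early, resting or activated clusters, for 411 cycling cDC1s and for 301 non-cycling cDC1s outside and 1779 inside the authors' table, with exact 95% intervals and points for the 3 libraries. Resting clusters took 76.4% of the cycling cDC1s, and the early share lay between those of the other groups drawn.

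By genotype, cycling cells made up 13.2% (11.3 to 15.2; 159 of 1207) of all cells meeting the cDC1 conditions in WT, 15.8% (13.3 to 18.6; 125 of 790) in *sGsn-/-* and 16.1% (13.9 to 18.6; 155 of 960) in *sGsn-/- Clec9a-/-*. The intervals overlapped. With at least 2 UMIs of both cycle genes the shares were 8.95% (7.40 to 10.7), 13.7% (11.4 to 16.3) and 12.4% (10.4 to 14.6), and WT and *sGsn-/-* then did not overlap. With cells thinned to 5000 UMIs they were 6.08% (4.22 to 8.43), 8.10% (5.20 to 11.9) and 8.20% (5.81 to 11.2), overlapping. WT was the lowest under each, and with 1 library per genotype the difference cannot be told apart from a difference between libraries.

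Most of the more abundant genes of the cycling cDC1s were alike between genotypes. Their median absolute log2 ratio was 0.115, 0.113 and 0.126 for *sGsn-/-* over WT, *sGsn-/- Clec9a-/-* over WT and *sGsn-/- Clec9a-/-* over *sGsn-/-*. These medians cover only the 2854, 2799 and 2834 genes that met a minimum CPM. The genes below are the extremes of these ratios at 50 CPM or more, without a test. *Hspa1b*, a heat-shock protein, measured 522 (498 to 546), 207 (192 to 224) and 179 (165 to 194) CPM, so that WT was highest. *Irf7*, an interferon factor, measured 62.1, 145 and 113 CPM, lowest in WT. *Plac8* measured 168, 245 and 315 CPM and *Cdc20* 27.4, 38.1 and 54.0, both lowest in WT. *Cebpb*, a myeloid transcription factor, measured 83.9 CPM in WT and 27.9 in *sGsn-/- Clec9a-/-*. *Gm42418*, which overlaps ribosomal RNA sequence and is uncertain, measured 9409, 11098 and 19446 CPM.

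Several extremes held a large share of their UMIs in 1 cell. *Retnla*, a secreted protein of alternatively activated macrophages, measured 262 CPM in WT, where 1 cell held 569 of 935 UMIs, and 2.91 and 4.45 in the others. *Il12b*, the p40 chain of IL-12, had 226 of 246 UMIs in *sGsn-/-* in 1 cell. *Ccl5* had 126 of 179 UMIs in *sGsn-/-* in 1 cell, and *Fabp5*, a fatty acid carrier, 150 of 197. *Cxcl9*, a T cell chemokine, had 136 of 413 UMIs in WT in 1 cell, and *Cxcl2* 210 of 813. Without the cell with the most UMIs in each library, *Retnla* was still higher in WT than in *sGsn-/-* (104 and 2.61 CPM), as was *Cxcl2* (171 and 42.5), and *Cxcl9* was still higher in WT than in *sGsn-/- Clec9a-/-* (78.1 and 14.7). *Ccl5* was still higher in *sGsn-/-* than in WT (17.4 and 3.67), whereas the order turned for *Il12b* (6.49 and 9.62) and *Fabp5* (15.4 and 23.03).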

How the data were processed

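The matrices deposited by the authors hold UMI counts, not normalised, for each gene and cell barcode of 3 libraries, made with Cell Ranger (6.0.1 per the file headers) against mm10. Their table lists the library and cluster of 5806 cDC1s, clustered in Seurat after dying, T, NK, plasmacytoid and proliferating cells were left out. The members and the gene lists were chosen with earlier results of these data known.

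Counts were summed by library and group, and compared with edgeR 4.0.16 in R 4.3.3 (TMM factors, filterByExpr, quasi-likelihood test, Benjamini-Hochberg adjustment at 0.05) after the 7 selection genes were taken out. Standard errors are the absolute log2 difference over the square root of F. Both groups of a library were drawn from 1 pool of mice and are paired by it. Deviations from the group means correlated within libraries at 0.146, 0.114 and 0.175 for non-cycling cells and 0.108, 0.077 and 0.126 for macrophages, and a library block was tried. The test was checked on simulated data.

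Genes were named by a rule: the 7 selection genes, *Clec9a* and *Gsn*, up to 4 of each list by level and up to 4 by difference, the 6 largest and 6 smallest differences outside the lists at 50 CPM or more, and genes the paper names for these data. Genes outside this rule are marked as chosen after their values were seen. The lists cover replication, histones, mitosis, chromosomes and spindle, G1, cDC1 identity, precursors, early cDC1s, MHC class II, *Ccr7* and *Cxcl9* states, immediate early genes, folding, ribosome biogenesis, glycolysis, and macrophage, cDC2, NK, T, B, neutrophil, erythroid and stromal markers. Genotype ratios and ratios to the table had 0.5 CPM added.

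Doublet scores came from Scrublet in scanpy 1.11.5 (Python 3.11.15, scipy 1.17.1), and the highest 6% in each library were marked. Alternatives were DESeq2 1.42.0, no TMM factors, no filter, each library left out, the block, thinning to 5000 UMIs, doublets out, at least 2 UMIs of both cycle genes, other-lineage cells out, a 5% mitochondrial limit, Spearman correlation and 300 genes for likeness. Leaving out cells with cDC2 marker UMIs and centring genes for likeness were chosen after seeing the data. Against macrophages, cells with cDC2 marker or other-lineage UMIs were left out of the cycling cDC1s only. Coordinates are from GENCODE M21.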

Additional observations from a re-analysis of the deposited data

Results flagged for a closer look

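Among named genes past the threshold against non-cycling cells, 2 had a ratio of the other sign in 1 library. *H2-Oa*, an MHC class II chain, had log2 ratios of cycling over non-cycling cDC1s outside the table of -0.74 in WT, -0.72 in *sGsn-/-* and 0.021, near no difference, in *sGsn-/- Clec9a-/-*. *Cd63*, a tetraspanin, had log2 ratios of -1.46 in WT, 0.041 in *sGsn-/-* and -1.87 in *sGsn-/- Clec9a-/-*. With 1 library per genotype, neither difference between genotypes was tested.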

How the results depend on the processing

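Pairs of a named gene and an alternative were counted for the comparison with non-cycling cells only. Of 1542 such pairs, 1383 kept direction and side of the threshold, 116 missed the threshold, 32 newly passed it and 11 turned. Of 134 genes, 79 changed side under none of the alternatives. In the comparison with non-cycling cells, 442 genes were higher and 296 lower after thinning, 688 and 479 without the highest doublet scores, and 399 and 165 without cells holding cDC2 marker UMIs. Fewer genes were also lower without other-lineage cells (532) and without WT (579), *sGsn-/-* (512) or *sGsn-/- Clec9a-/-* (551). Against macrophages thinning gave 1072 and 1151, and in thinned cells fewer genes could be tested. *Apoe* turned to 0.34 without the highest doublet scores. Without cells holding cDC2 marker UMIs, *Cdkn1a* turned to 1.28, *Cxcl2* to 0.998, *Eno1* to 0.52, *Slc2a1* to 0.33, *Itgax* to 0.27, *Naaa* to -0.19, *Tlr3* to -0.10, *Nop56* to -0.035, *Ncl* to -0.025 and *Nop58* to -0.00061. The cycling share was 8.95% in WT and 12.4% in *sGsn-/- Clec9a-/-* with at least 2 UMIs of both cycle genes, 6.08%, 8.10% and 8.20% after thinning, and 13.7% in *sGsn-/- Clec9a-/-* without cells holding cDC2 marker UMIs. Without the highest doublet scores 12.9% of cycling cDC1s were most like early, 82.6% resting and 4.49% activated cells, and without cells holding cDC2 marker UMIs 11.6% were most like early and 83.5% resting cells. The cause was not tested. With DESeq2 *Ccl5*, *Cd63*, *Dkc1*, *Il4i1*, *Kit*, *Nkg7*, *Npm1*, *Plac8* and *Siglech* missed the threshold. Depth limits what can be seen under 0.502 CPM, 3 UMIs, in the non-cycling sum.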
